A study of Zea mays with 54 samples.

Results

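The genes described are those of malate dehydrogenase and of photosynthetic carbon fixation that have a named probe on the arrays. They are mdh6, pdk1 and rca1, together with any other gene whose symbol is mdh and a number. A probe was taken where its only annotated gene carried such a symbol or synonym. This gave 30 probes of 49280 on 3 array designs, of which 26 had values, among 37662 probes with values. They stand for 5 of the 866 genes named by a probe, since the symbols mdh4 and mdh5 belong to 1 gene and the symbol PDK1 to more than 1. mdh6 had 4 probes, 2 of them with values, and pdk1 had 6, of which 4 had values. rca1 had 6 probes, mdh4/mdh5 had 12 and pdlk1 had 2, all with values.

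NADP-malate dehydrogenase, the product of mdh6, is a chloroplast enzyme that reduces oxaloacetate to malate. In maize leaves, which fix carbon by the C4 pathway, it works in the mesophyll, and the malate then moves to the bundle sheath, where malic enzyme releases the carbon dioxide for Rubisco. Pyruvate orthophosphate dikinase (pdk1) regenerates the phosphoenolpyruvate that accepts carbon at the start of the cycle, and Rubisco activase (rca1) keeps Rubisco in its active form. mdh4/mdh5, with the synonym CYTMDH, is a cytosolic malate dehydrogenase and serves general metabolism. pdlk1 is a pyruvate dehydrogenase kinase, a regulator of a different enzyme, and is kept apart from pdk1 although it is also called PDK1. The shoot apical meristem is a small dome of dividing cells that lies inside the young leaves and is not itself a photosynthetic tissue.

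On every slide the L1 was set against the L2 of vegetative shoot apical meristems of the maize inbred line B73, from seedlings 14 days old. The L1 is the single outer cell layer that gives rise to the epidermis, and the L2 of the labels is the corpus beneath it. Cells of both were cut out by laser microdissection, the RNA of several meristems was pooled and amplified, and the L1 and the L2 of a replicate were labelled with different dyes and hybridised to 1 spotted cDNA slide. The study asked which genes differ in transcript level between these cell layers. Each design had 6 slides, numbered 1 to 6, 7 to 12 and 13 to 18, with L1 in Cy3 on the odd slides and in Cy5 on the even ones. RNA extract numbers recur between designs, so a second design does not stand for new plants. On slides 1 to 6 the L2 numbers recur too, with 1 number on slides 1 and 2 and 1 on slides 5 and 6, and the p-values of that design treat these slides as independent.

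The deposited values are log ratios of both dyes with no stated base, so a difference is printed in log units and a fold for base 2 and for the natural logarithm. They are L1 minus L2, and a negative value means less transcript in L1. No source used here states the dye in the numerator. Cy5 was taken as the numerator from the marker genes below, so this direction is likely rather than certain, and with Cy3 as the numerator every sign in the text would turn. Slides of opposite dyes correlated above 0 after turning in 3 of 9, 7 of 9 and 7 of 9 pairs of the 3 designs in slide order (median r = -0.03, 0.16 and 0.16). Slides of like dye had a median r of 0.45, 0.27 and 0.27. This bears on the turning of slides against each other and not on which layer is higher. In the fits described below, a dye difference was called on 415, 1 and 0 probes of the 3 designs, and a layer difference on 409, 129 and 224. Epidermal markers were called higher in L1 on 3 of 6, 3 of 5 and 2 of 4 probes of the 3 designs in slide order, and none was called lower. On slides 7 to 12 they included the outer cell layer gene ocl4, at 2.65 ± 0.18 (SE, adjusted p = 0.000846). Corpus markers were called lower in L1 on 3 of 6, 1 of 6 and 1 of 12 probes, each time kn1, and higher on 0, 1 and 2, each time knox8. The direction rests on such markers, so their own direction is not a result.

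mdh6 was lower in L1 than in L2 on both of its measured probes, which lie on slides 7 to 12. No probe of pdk1, rca1, mdh4/mdh5 or pdlk1 was called in either direction. A probe was called at a Benjamini-Hochberg adjusted p under 0.05 in limma, adjusted over all probes of its design. On slides 7 to 12 this was 2 of 11 probes of these genes, and 1.43 percent of all 8991 probes were called. At an unadjusted p under 0.05 were 4 of these 11, among them pdk1 probes a and b. The called count was 0 of 9 on slides 1 to 6 (2.84 percent of all probes), with 1 at an unadjusted p under 0.05. It was 0 of 6 on slides 13 to 18 (1.57 percent of all probes), with 0 at an unadjusted p under 0.05. Of all probes, 14.8, 13.8 and 12.9 percent of the 3 designs in slide order had an unadjusted p under 0.05.

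**Figure D1:**
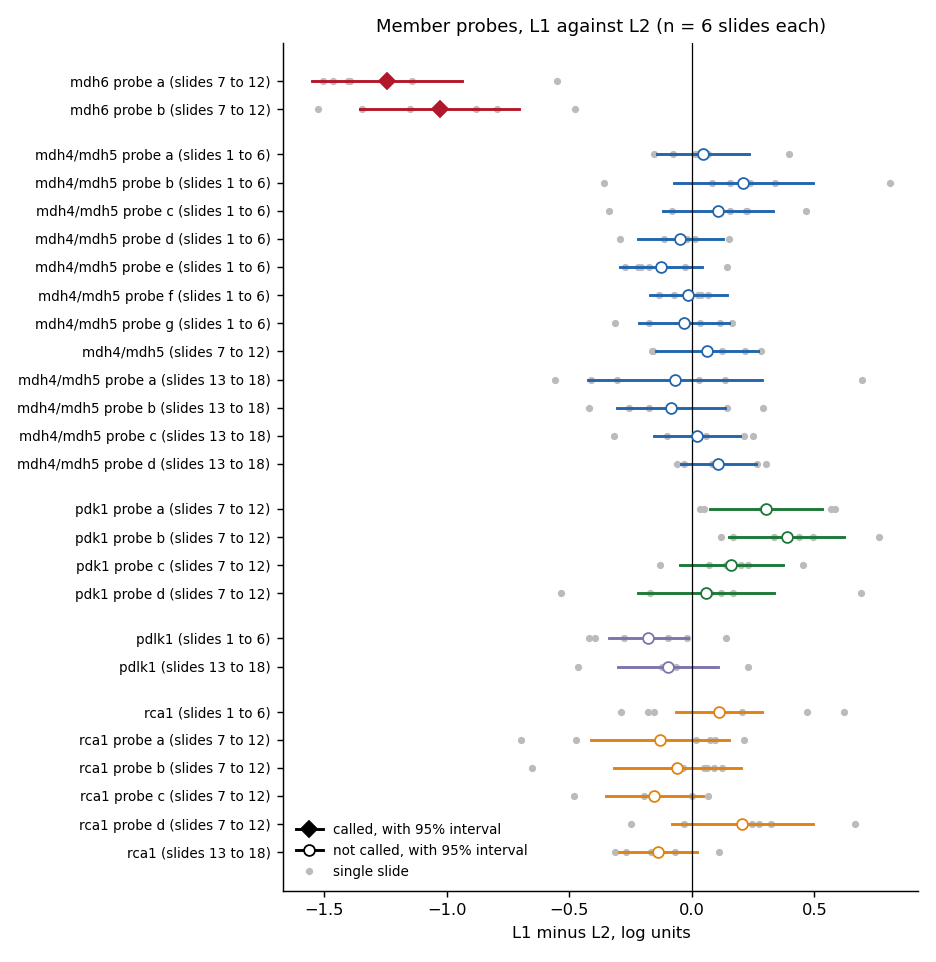
L1 minus L2 in log units for each of the 26 probes (rows), with the limma estimate and its 95% interval in colour and the 6 single slides in grey. The mdh6 probes, at -1.24 and -1.03, are the only called ones (filled diamonds), and the other estimates lie between -0.18 and 0.39.

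On mdh6 probe a the difference was -1.40, -1.51, -1.39, -1.14, -0.55 and -1.47 on slides 7, 8, 9, 10, 11 and 12. All 6 slides were thus below 0, with slide 11 nearest to it. The estimate was -1.24 ± 0.13 (SE, n = 6 slides; 95% interval -1.55 to -0.94; limma adjusted p = 0.00811). The level in L1 was then 0.422 of that in L2 at base 2, or 0.288 with the natural logarithm (2.37 and 3.47 if the ratio runs the other way). On mdh6 probe b the same slides gave -1.35, -0.79, -0.88, -1.15, -0.48 and -1.53, again all below 0 and again with slide 11 nearest to it. Its estimate was -1.03 ± 0.14 (SE, n = 6 slides; 95% interval -1.35 to -0.71; limma adjusted p = 0.0202), or 0.49 of the L2 level at base 2 and 0.357 with the natural logarithm (2.04 and 2.80 if the ratio runs the other way). Counted from the most negative difference of the 8991 probes, probe a stood at place 10 and probe b at place 15, which would be places from the most positive one if the ratio runs the other way. Of all these probes, 5.47 percent were below 0 on every slide.

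The probes are spots of 1 transcript on the same slides and RNA, so they do not replicate each other. With the probes averaged, mdh6 was at -1.14 (95% interval -1.42 to -0.85, limma adjusted p = 0.0083 with 1 mean per gene). The 3 slides with L1 in Cy5 averaged -1.26 ± 0.20 and the 3 with L1 in Cy3 averaged -1.01 ± 0.45 (SD), so the difference had the same sign under both dye orientations. Without slide 11, the limma estimate was -1.38 (adjusted p = 0.000893) for probe a and -1.14 (adjusted p = 0.0175) for probe b. Probe b was not called without slide 7, 9, 10 or 12, where its adjusted p lay between 0.0619 and 0.109 and its estimate between -1.03 and -0.92. Probe a was still called with any 1 slide left out (adjusted p between 0.000893 and 0.0449). The mdh6 probe of slides 1 to 6 and its remaining probe of slides 7 to 12 have no values in the deposited table, so mdh6 is known here from 1 design alone.

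**Figure D2:**
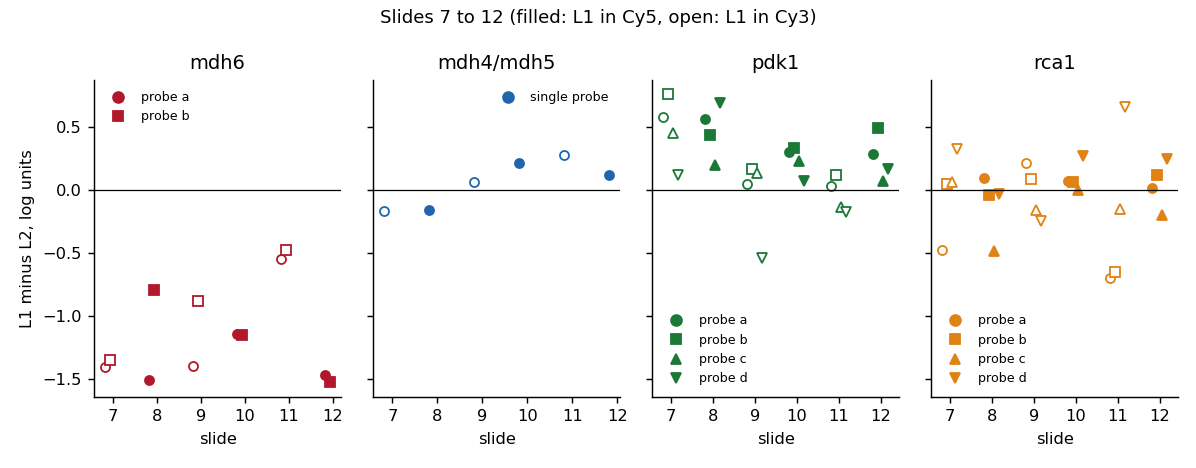
L1 minus L2 in log units (vertical axis) by slide for mdh6, mdh4/mdh5, pdk1 and rca1 on slides 7 to 12, with 1 symbol per probe, filled where L1 carried Cy5 and open where it carried Cy3. All mdh6 points lie at or below -0.48, and those of the other genes spread around 0 or, for pdk1, mostly above it.

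Each slide was read 3 times, and the readings carry the letters L, M and H, which the labels do not explain. All 18 readings of mdh6 probe a were below 0, between -1.80 and -0.32, and all 18 of probe b, between -1.85 and -0.36. The size depended on the reading. Probe a was at -0.91 on L alone, -1.30 on M alone and -1.52 on H alone (adjusted p = 0.00483, 0.0335 and 0.0144 in limma). Probe b was at -0.87, -1.14 and -1.08 in that order, and on H alone it was not called (adjusted p = 0.0164, 0.0296 and 0.0699). The 3 readings of slide 11 correlated least over all probes, with r between 0.31 and 0.37, and those of the other 5 slides of the design with r between 0.50 and 0.83. The part of this in the mdh6 value of slide 11 was not tested. The array weights that limma estimated over all probes were lowest for slide 8 (0.52), and that of slide 11 was 1.05.

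**Figure D3:**
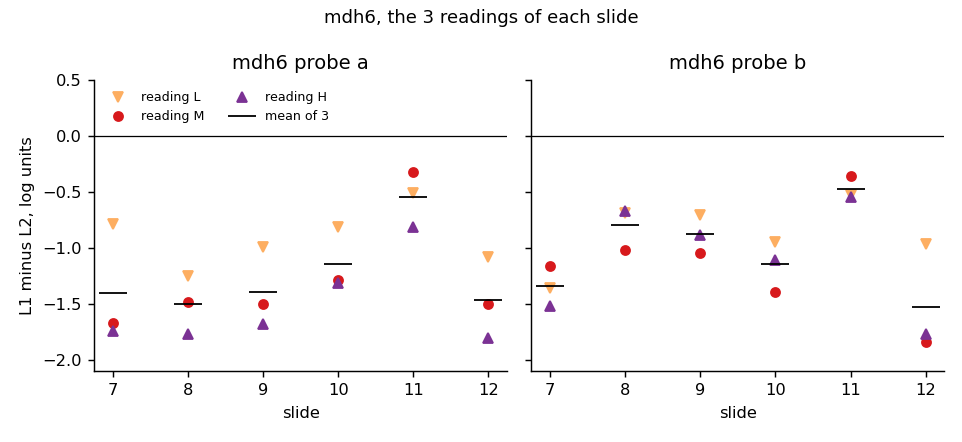
L1 minus L2 in log units for mdh6 by slide, with the readings L, M and H as separate symbols and their mean as a bar, probe a on the left and probe b on the right. Every reading is below 0, and slide 11 is nearest to 0 on both probes, at -0.55 and -0.48.

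The cytosolic malate dehydrogenase mdh4/mdh5 had a probe on the same slides, where it was at -0.16, -0.16, 0.07, 0.22, 0.28 and 0.12 on slides 7 to 12. It lay on both sides of 0, with an estimate of 0.06 ± 0.09 (SE, n = 6 slides; 95% interval -0.15 to 0.27; limma adjusted p = 0.796). Within a slide, and with the probes of a gene averaged, mdh6 was below mdh4/mdh5 on 6 of 6 slides, with differences between -1.62 and -0.80. The mean of this difference was -1.20 ± 0.29 (SD, n = 6; exact two-sided sign-flip permutation test, p = 0.0312). mdh6 was also below pdk1 on 6 of 6 slides, with a mean difference of -1.36 ± 0.51, and below rca1 on 6 of 6 slides, with a mean difference of -1.10 ± 0.43 (SD, n = 6; p = 0.0312 each in the same exact test). That is the smallest p that 6 slides allow, and it is 0.0312 too after Benjamini-Hochberg adjustment over the 3 gene pairs, which were chosen after the values of mdh6 were seen. These p-values restate the low values of mdh6 on all 6 slides and are no further support for its call. For rca1 the 6 of 6 slides hold for the gene mean and not for every probe. On slide 11 rca1 probes a and b, at -0.70 and -0.65, lay below mdh6 probes a and b, at -0.55 and -0.48. The rca1 mean of that slide, -0.21, also holds probe d at 0.67.

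mdh4/mdh5 was the most densely sampled of these genes, and none of its 12 probes was called. Its 7 probes of slides 1 to 6 had estimates between -0.13 and 0.21, and their mean was 0.02 (95% interval -0.15 to 0.19, limma adjusted p = 0.941). The highest of them, probe b, was at 0.08, 0.34, 0.16, 0.81, 0.24 and -0.36 on slides 1 to 6, so slides 4 and 6 lay far apart. On slides 13 to 18 its 4 probes had estimates between -0.09 and 0.11, with a mean of -0.01 (95% interval -0.15 to 0.14, limma adjusted p = 0.979). One of its clones was spotted on both designs, as probe e of slides 1 to 6 (-0.13 ± 0.08, adjusted p = 0.483) and probe b of slides 13 to 18 (-0.09 ± 0.09, adjusted p = 0.758; SE, limma). The gene means of the 3 designs, 0.02, 0.06 and -0.01, are given side by side with no test, since the extracts recur.

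pdk1 was measured on slides 7 to 12 only, where its 4 probes had estimates above 0 and none was called. Probe b was at 0.76, 0.44, 0.17, 0.34, 0.12 and 0.49 on slides 7 to 12, above 0 on every slide, with an estimate of 0.39 ± 0.10 (SE; 95% interval 0.15 to 0.62; limma adjusted p = 0.157). Probe a was also above 0 on every slide, at 0.58, 0.57, 0.05, 0.30, 0.03 and 0.29 (estimate 0.30 ± 0.10, limma adjusted p = 0.245). Slides 9 and 11, both with L1 in Cy3, were the lowest on both of these probes, and slide 7, also with L1 in Cy3, was the highest. The dye terms of the fit were 0.08 for probe a and 0.04 for probe b (limma adjusted p = 0.765 and 0.906). Of all probes of the design, 3.59 percent were above 0 on every slide. Probe c was at 0.16 ± 0.09 and above 0 on 5 of 6 slides (adjusted p = 0.476), and probe d at 0.06 ± 0.12 and above 0 on 4 of 6 (adjusted p = 0.867; SE, limma). Probe d spread most, between -0.54 on slide 9 and 0.69 on slide 8.

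Averaged over its probes, pdk1 was at 0.48, 0.47, -0.04, 0.23, -0.04 and 0.25 on slides 7 to 12. Slides 9 and 11 lay just below 0 and the other 4 above it. The mean was 0.23 (95% interval 0.01 to 0.45), with an adjusted p of 0.342 in limma on gene means, so the difference did not pass the test. pdlk1, the kinase that shares the symbol, was at -0.18 ± 0.07 on slides 1 to 6 (adjusted p = 0.282) and -0.10 ± 0.09 on slides 13 to 18 (adjusted p = 0.694; SE, limma). It was below 0 on 5 of 6 slides of each design, the exceptions being slides 5 and 17. On slides 1 to 6 it averaged -0.36 ± 0.08 with L1 in Cy5 and 0.01 ± 0.12 with L1 in Cy3 (SD, n = 3 each), and the dye term of the fit was -0.19 (limma adjusted p = 0.151), which did not pass the test.

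rca1 was measured on all 3 designs and called on none. On slides 1 to 6 it was at -0.16, 0.62, -0.18, 0.47, -0.29 and 0.20. The 3 slides with L1 in Cy5 were all above 0 (0.43 ± 0.21) and the 3 with L1 in Cy3 all below it (-0.21 ± 0.07; SD). The layer difference was 0.11 ± 0.08 (SE, limma adjusted p = 0.559), smaller than the dye term of the same fit at 0.32 (adjusted p = 0.0578). On slides 13 to 18 rca1 was at -0.31, -0.13, 0.11, -0.27, -0.17 and -0.07, below 0 on all but slide 15 (estimate -0.14 ± 0.07, SE; limma adjusted p = 0.448).

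The 4 rca1 probes of slides 7 to 12 gave estimates of -0.13, -0.06, -0.15 and 0.21, with adjusted p between 0.468 and 0.846 in limma. They disagreed most on slide 11, where probes a and b were at -0.70 and -0.65 and probe d at 0.67. The 3 readings behind each of these means were also far apart. They ran from -1.02 to -0.47 for probe a, -1.17 to 0.00 for probe b and -0.51 to 1.81 for probe d. The mean over the 4 probes was -0.03 (95% interval -0.20 to 0.13). The clone of probe b was spotted again on slides 13 to 18 as the rca1 probe described above, so these are estimates of -0.06 and -0.14 for 1 clone. In the order of gene means on slides 7 to 12, pdk1 came first at 0.23, then mdh4/mdh5 at 0.06, rca1 at -0.03 and mdh6 at -1.14. The intervals of the first 3 genes overlap, and that of mdh6 (-1.42 to -0.85) overlaps none of them.

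The list of C4 carbon shuttle genes was drawn up by enzyme. A gene in it therefore need not encode the form that works in the C4 pathway. Its genes other than mdh6 and pdk1 were measured on 15, 9 and 8 probes of the 3 designs in slide order, and none was called. On slides 7 to 12 all 9 of these probes, which stand for 6 genes, were below 0, between -0.44 and -0.06 with a median of -0.19. Of the 9, 4 had an unadjusted p under 0.05 in limma (lowest adjusted p = 0.137). With mdh6 and pdk1 included, 11 of the 15 shuttle probes there were below 0 and 4 above. On the single slides of that design, 48.2 to 58.8 percent of all probes were below 0. Over all probes, 14.8, 13.8 and 12.9 percent of the 3 designs in slide order had an unadjusted p under 0.05. The median of all probes of slides 7 to 12 was -0.02. The lowest of the 9 shuttle probes was that of pdrp1, at -0.44 (adjusted p = 0.189). Its product is the regulatory protein that switches pyruvate orthophosphate dikinase off and on. The other probes included the plastid dicarboxylate transporters pDCT2 (-0.32 and -0.26) and pDCT1 (-0.11). The rest were pep7 (-0.23) and pep4 (-0.12 and -0.06), both phosphoenolpyruvate carboxylases, and the malic enzyme me2 (-0.19 and -0.16).

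Elsewhere the shuttle genes lay on both sides of 0. Above 0 were 10 of 15 probes on slides 1 to 6 (median 0.10, all probes 0.00), among them me2 at 0.21, which was below 0 on slides 7 to 12. me3, the NADP-malic enzyme gene whose product releases carbon dioxide in the bundle sheath, was at -0.18 and -0.09 there and at -0.10 and -0.03 on slides 13 to 18. PPCK1, a kinase of phosphoenolpyruvate carboxylase, averaged 0.12 over 5 probes on slides 1 to 6 and was at 0.17 on slides 13 to 18. The related kinase PPCK2 was at 0.16 on slides 13 to 18, and pep4 was at -0.07 there. pep7 averaged 0.05 over 7 probes on slides 1 to 6 and 0.02 over 2 probes on slides 13 to 18. On those slides 4 of 8 probes of the shuttle were above 0, and 2 probes of each of these designs had an unadjusted p under 0.05. A further list held mitochondrial and cytosolic malate dehydrogenases and the genes of the citric acid cycle. Of that list, the cytosolic mdh4/mdh5 was the only gene matched to a probe by symbol or synonym.

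**Figure D4:**
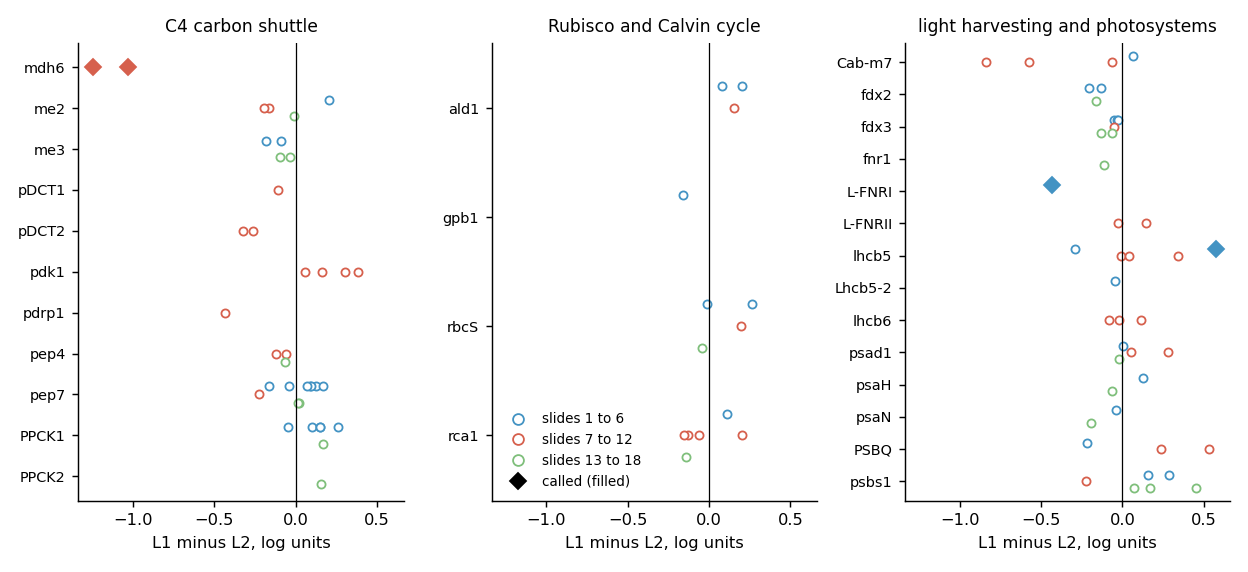
L1 minus L2 in log units (horizontal axis) for the lists of C4 carbon shuttle, Rubisco and Calvin cycle, and light harvesting and photosystem genes. There is 1 point per probe, coloured by design and filled where called. In the shuttle panel only the mdh6 points, at -1.24 and -1.03, are called, and in the light harvesting panel lhcb5 (0.57) and L-FNRI (-0.43).

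Genes listed under Rubisco and the Calvin cycle were taken as markers of photosynthetic leaf cells. They were called on 0 of 6, 0 of 6 and 0 of 2 probes, rca1 included. Of these probes, 1, 0 and 0 had an unadjusted p under 0.05 in limma. The Rubisco small subunit gene rbcS was at 0.20 (adjusted p = 0.557) on slides 7 to 12 and -0.05 (adjusted p = 0.848) on slides 13 to 18. The aldolase gene ald1 was at 0.16 on slides 7 to 12 and averaged 0.14 over 2 probes on slides 1 to 6. It was matched by name, and whether it encodes the plastid enzyme of the Calvin cycle was not checked. gpb1, a subunit of chloroplast glyceraldehyde-3-phosphate dehydrogenase, was at -0.16 on slides 1 to 6.

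Light harvesting and photosystem genes were called on 2 of 16 probes of slides 1 to 6, 0 of 17 of slides 7 to 12 and 0 of 10 of slides 13 to 18, with 5, 3 and 1 at an unadjusted p under 0.05 (14.8, 13.8 and 12.9 percent of all probes). The antenna protein gene lhcb5 was higher in L1 on 1 probe (0.57, adjusted p = 0.0196) and at -0.29 (adjusted p = 0.131) on its other one, so its probes disagreed. L-FNRI, a leaf ferredoxin-NADP reductase, was lower in L1 at -0.43 (adjusted p = 0.0179). On slides 7 to 12, where mdh6 was called, the chlorophyll-binding gene Cab-m7 averaged -0.49 over 3 probes between -0.84 and -0.07 (adjusted p at least 0.245). PSBQ, of the oxygen-evolving complex, averaged 0.39 over 2 probes there (adjusted p at least 0.349). The median of the 17 probes was -0.01. On slides 13 to 18 the photoprotective protein gene psbs1 averaged 0.23 and the photosystem I gene psaN was at -0.19.

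Markers of young leaf primordia, which adjoin the meristem, were called higher in L1 on 3 of 8, 2 of 6 and 3 of 13 probes. None was called lower, and 2.84, 1.43 and 1.57 percent of all probes were called. Of the same marker probes, 4 of 8, 2 of 6 and 3 of 13 were below 0. Among them was rs2 on every design (-0.36, -0.20 and -0.32, limma adjusted p at least 0.178). On slides 7 to 12 the called markers were yabby15 at 2.12 (adjusted p = 0.000602) and yab9 at 0.46 (adjusted p = 0.0264). On those slides rld1 was below 0, at -0.12 (adjusted p = 0.483). On slides 1 to 6 the called genes were yab10, yab14 and lg2, at 0.49, 0.66 and 0.46, and on slides 13 to 18 yabby15, on both of its probes (1.94 and 1.31), and 1 of 2 probes of ns1 (0.54). The part of leaf cells in the value of mdh6 was not tested. In pooled layers such as these, fewer cells with a transcript and less transcript per cell cannot be told apart. A cDNA spot can also bind transcripts of close relatives, and whether those of mdh6 did was not tested.

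The named genes most like mdh6 over slides 7 to 12, by the root mean square difference between their slide values, were kn1, PIP1-1 and pr5, out of 422 genes. kn1, the knotted1 homeobox gene that marks the meristem, was 0.49 log units from mdh6, with a mean of -0.99 (adjusted p = 0.00534 with 1 mean per gene, limma). Its 2 probes there were far apart, at -1.72 and -0.27. PIP1-1, a plasma membrane aquaporin, was 0.62 away with a mean of -0.83 (adjusted p = 0.244), and pr5, a pathogenesis-related protein, 0.65 away with a mean of -0.58 (adjusted p = 0.0469).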

How the data were processed

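L1 and L2 RNA were compared on 18 two-dye cDNA slides, 6 per array design. The deposited values are log ratios, and whether they are log2 or natural log values, which dye is the numerator and how the authors normalized them is not stated in the sources used here (the test was written for log2). Per the labels, dyes were swapped between odd and even slides. The L, M and H readings of a slide were averaged and turned to L1 minus L2, taking Cy5 as the numerator, and each slide counted as 1 replicate. limma 3.58.1 (R 4.3.3) fitted layer and dye terms per probe and design with lmFit and eBayes, after a test on simulated data with 200 changed probes. Adjustment followed Benjamini and Hochberg, over every probe of a design with values. The p-values test the layer term against the spread between 6 slides, moderated over the probes of the design. This number of slides limits the precision. Gene means averaged a gene's probes per slide. Genes were matched by symbol or synonym through the RefSeq names of Zm-B73-REFERENCE-NAM-5.0, since product names were not used here, and 3845 of 49280 probes had 1 gene. The text names every member, every C4 shuttle gene with values, list genes with a called probe (failing any, the 2 of largest mean), and the 3 genes nearest to a called member. Members and lists were chosen with earlier results of these data known. Alternatives were single readings, scaling, quantile normalization, centring, no dye term, robust eBayes, 1 mean per gene, slides left out, array weights (slides 7 to 12), the L2 extract as a block and no slides 1 and 5 (slides 1 to 6). Figures used Python 3.11.15 and matplotlib 3.10.9.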

Additional observations from a re-analysis of the deposited data

Results flagged for a closer look

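One value of the 26 probes lay apart from the other 5 slides of its design by Dixon's test, which chance gives in about 1 of 20 groups. The rca1 probe b was at -0.65 on slide 11, and the next lowest slide of the design was at -0.03. The 3 readings of this probe on slide 11 ran from -1.17 to 0.00. On the same slide mdh6 was nearest to 0 on both probes. Without slide 11, this rca1 probe was at 0.06 and was not called either.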

How the results depend on the processing

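The count of called probes on slides 7 to 12 was 2 and became 1 on the H reading alone and 1 after the slides were scaled to an equal median absolute value, where mdh6 probe b had adjusted p = 0.0699 and 0.0612. Leaving out each slide gave 1 to 2 called, on slides 7 to 12. On slides 1 to 6 and 13 to 18 the count was 0 under each of the 16 and 14 alternatives run, so leaving out each slide gave 0 to 0 there. Over its 15 alternatives, mdh6 probe a stayed below 0 and called, between -1.52 and -0.91 (adjusted p between 0.000893 and 0.0449), and probe b stayed below 0, between -1.14 and -0.87 (adjusted p between 0.0115 and 0.109). No other probe of these genes was called under any of them. With 1 mean per gene, mdh6 was the 1 gene called. With 6 slides a design, the number of slides limits how small a difference can be called. Whether the value of pdk1 would pass with more slides was not tested. Each value already sets both layers against each other within a slide. The count on slides 1 to 6 was also 0 with the L2 extract number as a random block.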
